A study of Mus musculus with 12 samples.

Results

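The genes described here are 38 genes of fatty acid oxidation and ketogenesis, found by their symbols among the 50559 gene rows of the count tables of a mouse liver RNA-seq study. The list holds the regulator Ppara, 5 genes of the carnitine shuttle, 11 enzymes of mitochondrial beta-oxidation, 3 genes of electron transfer, 9 genes of peroxisomal oxidation and import, 5 acyl-CoA thioesterases, 2 ketone body enzymes and 2 further genes that respond to PPARA. All 38 were present and were tested in each comparison. The study's title calls the compounds C1 and C2 inhibitors of CYP4A, a family of enzymes that hydroxylate fatty acids. All mice were C57BL/6N, each group had 3 liver libraries labelled as biological replicates, and diet and treatment ran for 12 weeks. NCD mice were fed normal chow. HFD mice were fed a high-fat diet in which fat gave 60% of the energy. HFD+C1 and HFD+C2 mice were fed the same high-fat diet and were injected into the peritoneum with C1 or C2, at a dose of 5 mg/kg/day. The labels used here do not say whether the NCD and HFD mice were injected with vehicle, and give no age, sex or pooling of animals. The p-values below measure the spread between these libraries.

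In the liver, fatty acids are activated to acyl-CoA, carried into mitochondria through the carnitine shuttle, and shortened by beta-oxidation to acetyl-CoA, which can be turned into ketone bodies. Peroxisomes shorten very long and other fatty acids that mitochondria handle poorly. PPARA is a nuclear receptor that binds fatty acids and, together with a retinoid X receptor, drives many of these genes, most visibly in fasting.

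The libraries held between 6654983 and 47352550 reads in all, and between 4281210 and 32124248 reads counted in genes. The members took 1.14% to 1.45% of the gene reads, and the smallest count of a member was 11 (Abcd2 in NCD replicate 2). The gene assignment of 2 libraries stood furthest apart. Reads not assigned to a gene made up 58.2% of NCD replicate 1 and 47.1% of HFD+C2 replicate 1, against 27.3% to 40.7% of the other libraries. NCD replicates 2 and 3, at 35.7% and 40.7%, also lay above every HFD library (31.9% to 32.95%). In the diet comparison this difference in assignment cannot be told apart from the diet. The mean correlation of log2 levels with the other libraries of the group was 0.927 for NCD replicate 1, 0.954 for HFD+C2 replicate 1, 0.946 and 0.959 for the other NCD libraries, 0.970 and 0.971 for the other HFD+C2 libraries, and 0.985 to 0.989 within HFD and HFD+C1. The shallowest library was NCD replicate 2. Results that turned most on these libraries are also given without them. Levels are in CPM, reads per 1000000 gene reads after TMM scaling. Hepatocyte genes were abundant in every library: albumin (Alb) was at 10660 CPM in NCD replicate 1 and between 41890 and 111700 CPM in the others.

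Between genes, levels were compared per kilobase of exon. In HFD livers the highest members per kilobase were Etfb, a subunit of the electron transfer flavoprotein, at 1109 ± 222 CPM per kb, Acaa1b, a peroxisomal thiolase, at 1039 ± 215, and Acaa2, a mitochondrial thiolase, at 998.6 ± 14.7 (SD, n = 3). These 3 did not differ beyond their spread. The lowest were Acot3 (1.23 ± 0.46), Acot4 (2.25 ± 0.29), Pdk4 (2.43 ± 0.50), Acot2 (2.62 ± 0.26) and Abcd2 (2.99 ± 0.70), and neighbours in that order overlapped except for Acot3, which lay below Acot4. In NCD livers Abcd2 (0.522 ± 0.089 CPM per kb) and Acot3 (0.605 ± 0.201) were the lowest. Replicate spread was narrowest in HFD, where the median coefficient of variation of the members was 8.46%, against 27.2% in NCD, 9.02% in HFD+C1 and 17.6% in HFD+C2.

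**Figure D1:**
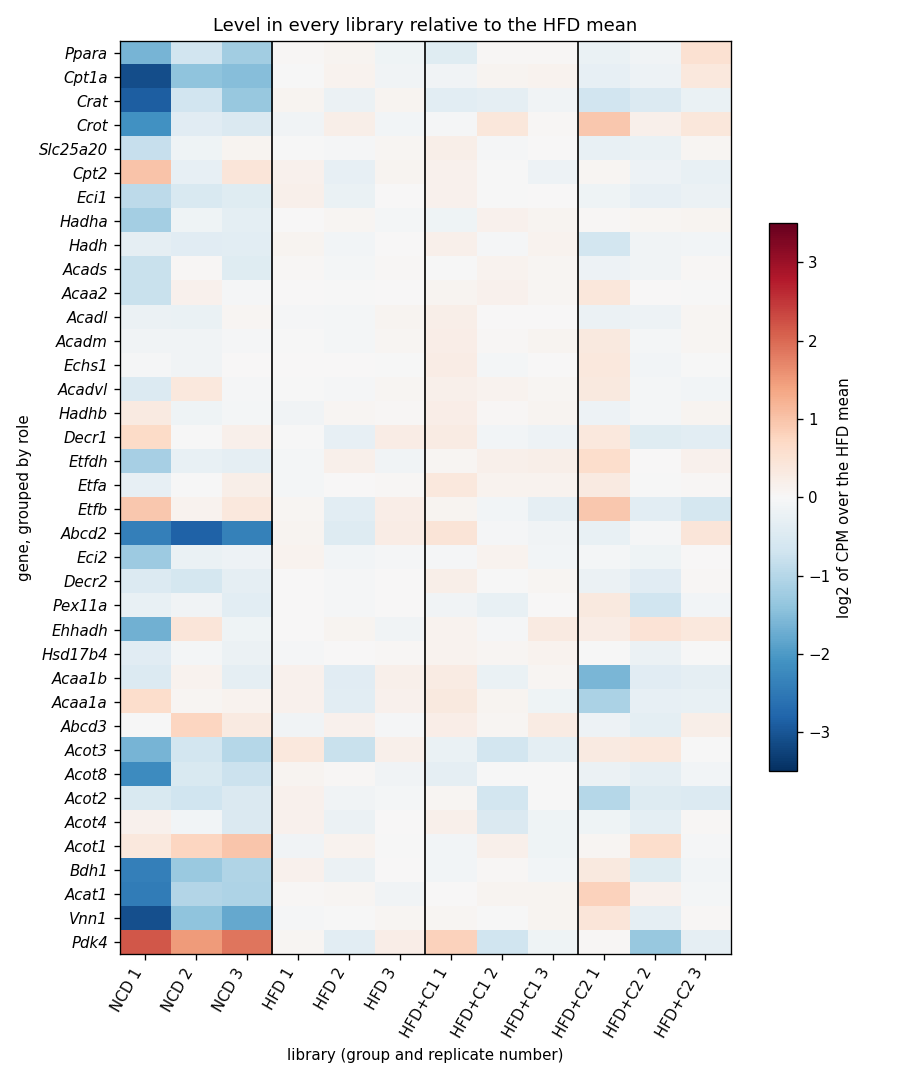
Each row is a gene and each column a library; colour gives log2 of the CPM over the mean CPM of the 3 HFD libraries. The NCD columns hold the deepest colours, blue for Abcd2, Cpt1a, Vnn1 and, in NCD replicate 1, Crat, and red for Pdk4. NCD replicate 1 and HFD+C2 replicate 1 differ from the other columns of their groups.

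The first comparison, HFD against NCD, asked how these genes differed between high-fat-fed and chow-fed mice.
By edgeR's quasi-likelihood test, 5 of the 38 members rose and 1 fell on the high-fat diet. Those that rose were Abcd2 (5.61-fold), Vnn1 (3.90-fold), Cpt1a (3.59-fold), Bdh1 (2.79-fold) and Ppara (2.20-fold), and Pdk4 fell to 0.275 of its chow level. DESeq2 called 11 members, these 6 together with Acat1, Crat, Eci1 and Decr2 as higher and Acot1 as lower, among 2298 of all 13864 genes tested. Among the same genes, edgeR called 6.03% after Benjamini-Hochberg adjustment, 2.59% as higher and 3.44% as lower in HFD. The groups did not overlap for 20 of the 38 members, 18 higher and 2 lower in HFD, and for 37.1% of all genes. The median log2 difference was 0.26 over the members, of which 30 were higher and 8 lower, and -0.02 over all genes tested. With total-count scaling these medians were 0.05 and -0.24, with 22 members higher and 16 lower. An unadjusted p under 0.05 was found for 14 members and for 28.9% of all genes. In whole liver, fewer cells of a type and less RNA per cell cannot be told apart. Summed levels of 7 hepatocyte genes ran from 29280 to 79740 CPM in NCD, lowest in replicate 1, and from 93990 to 112300 CPM in HFD. Alb and Apob were higher in every HFD library, while Apoa1, Ttr, Fgb, Serpina1a and Cps1 overlapped. Serpina1a was at 1227, 1875 and 2478 CPM in NCD and 1607, 1585 and 1526 CPM in HFD. The part of hepatocyte content in the diet differences was not tested.

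Ppara, the nuclear receptor itself, was at 31.7, 61.4 and 41.6 CPM in NCD replicates 1 to 3 and at 101, 103 and 87.4 CPM in HFD. All HFD values lay above all NCD values. The rise was 1.14 on the log2 scale (SE 0.25, adjusted p = 0.0419). With the libraries scaled by total counts, Ppara was no longer called (log2 difference 0.92, adjusted p = 0.05002).

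Cpt1a, the carnitine palmitoyltransferase of the outer mitochondrial membrane and the main control point of fatty acid entry, was at 27.0, 87.1 and 81.6 CPM in NCD and at 229, 254 and 211 CPM in HFD. No NCD value reached the HFD range, and NCD replicate 1 was the lowest library by far. The log2 change was 1.84 (SE 0.39, adjusted p = 0.0399), and 1.46 without NCD replicate 1 (adjusted p = 7.3e-05). The rest of the shuttle was not called by edgeR. Crat, which transfers acetyl groups to carnitine, was at 9.35, 43.6 and 27.4 CPM in NCD and 73.7, 60.6 and 73.3 CPM in HFD, with a log2 difference of 1.41 (edgeR adjusted p = 0.0886, DESeq2 adjusted p = 0.0193). Here too the groups did not overlap, and without NCD replicate 1 the difference was 1.00 (edgeR adjusted p = 0.00526). The peroxisomal octanoyltransferase Crot differed by 0.84, the inner membrane carrier Slc25a20 by 0.25 and the inner membrane transferase Cpt2 by -0.46. Without NCD replicate 1 these differences were 0.45, 0.02 and -0.11, and with a library left out they ran from 0.45 to 1.14, 0.02 to 0.45 and -0.70 to -0.11. With library weights Slc25a20 turned to -0.03.

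The mitochondrial beta-oxidation enzymes lay between -0.30 (Decr1) and 0.61 (Eci1) on the log2 scale, with 9 of 11 higher in HFD and a median of 0.13. With total-count scaling Acadvl, Acadl, Acadm, Echs1 and Acaa2 turned to between -0.18 and -0.03. EdgeR called 0 of the 11, with 1 at an unadjusted p under 0.05, and DESeq2 called Eci1. Eci1, an isomerase needed for unsaturated fatty acids, was at 97.2, 126 and 136 CPM in NCD and 205, 155 and 185 CPM in HFD, without overlap (edgeR adjusted p = 0.0931, DESeq2 adjusted p = 0.0272). The chain-length dehydrogenases differed little: the very long chain enzyme Acadvl by 0.03, the long chain enzyme Acadl by 0.13, the medium chain enzyme Acadm by 0.11 and the short chain enzyme Acads by 0.36. For Acadm the 95% interval of the difference ran from -0.27 to 0.49. Of the subunits of the trifunctional protein, Hadha differed by 0.51 and Hadhb by -0.04, or by 0.24 and 0.11 without NCD replicate 1. None of the 3 electron transfer genes was called by edgeR or DESeq2. Etfb was at 1889, 1079 and 1268 CPM in NCD and 1048, 770.3 and 1153 CPM in HFD, with overlapping groups and a log2 difference of -0.50 (adjusted p = 0.249), or -0.24 without NCD replicate 1.

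**Figure D2:**
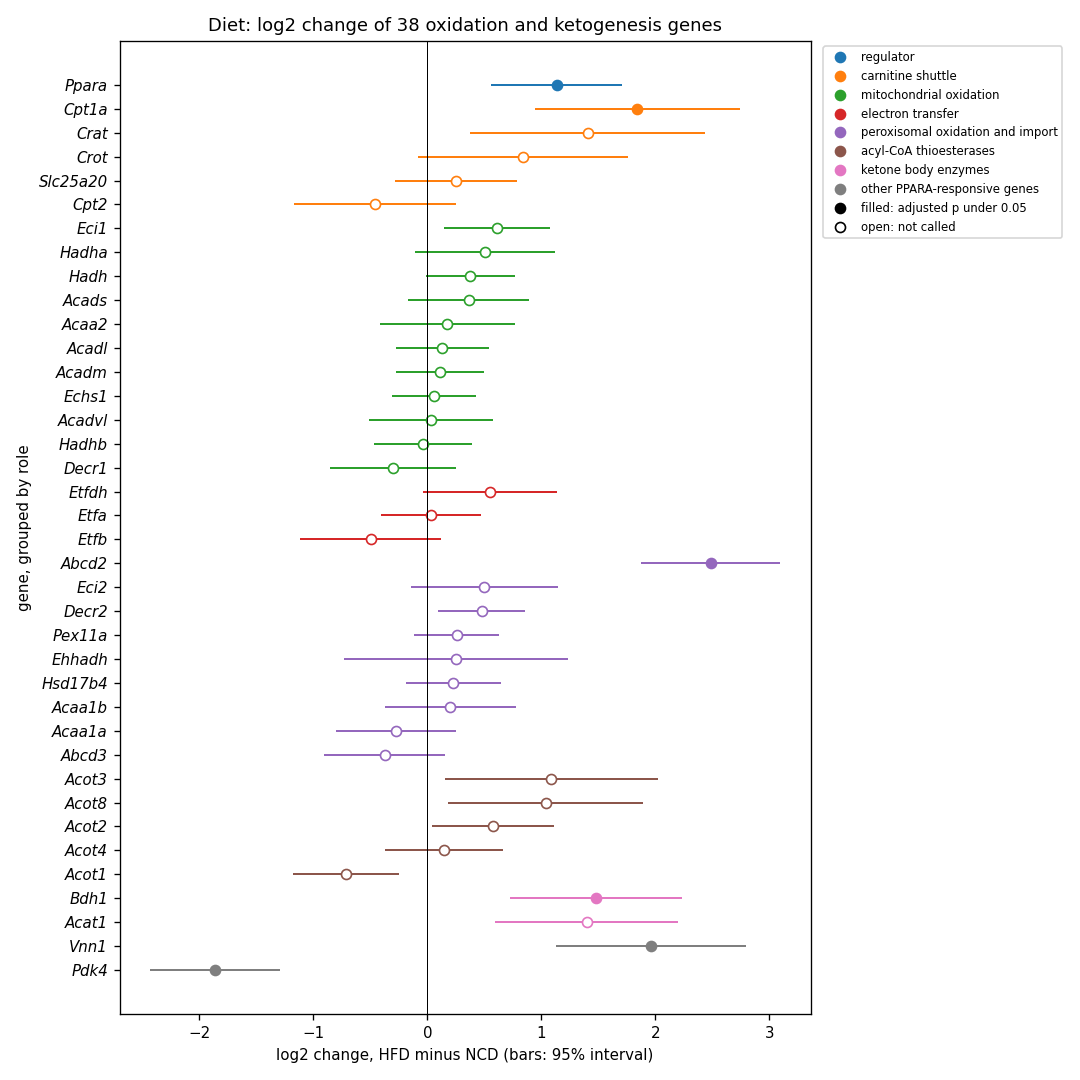
Points give the log2 change (HFD minus NCD, horizontal axis) of each of the 38 genes, bars its 95% interval, colours the role, and filled points the 6 genes called at an adjusted p under 0.05. Abcd2 lies farthest to the right at 2.49 and Pdk4 farthest to the left at -1.86, with the mitochondrial oxidation genes between -0.30 and 0.61.

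Among the 9 peroxisomal genes, edgeR called Abcd2, and DESeq2 called Abcd2 and Decr2. Abcd2, a transporter that carries very long chain acyl-CoA into peroxisomes, was at 3.15, 2.32 and 3.20 CPM in NCD and at 17.8, 12.2 and 19.6 CPM in HFD. The lowest HFD library stood well above the highest NCD library. The log2 change was 2.49 (SE 0.26, adjusted p = 0.00431), on counts of 11 to 78 reads in NCD and 344 to 536 in HFD. The other peroxisomal genes ran from -0.37 for the transporter Abcd3 (-0.55 and called by edgeR without NCD replicate 1, adjusted p = 0.0474) to 0.50 for the isomerase Eci2. Decr2, a peroxisomal reductase for unsaturated acyl-CoA, was at 111, 99.5 and 122 CPM in NCD and 154, 149.8 and 156 CPM in HFD, without overlap, with a log2 difference of 0.48 (edgeR adjusted p = 0.104, DESeq2 adjusted p = 0.0194). The bifunctional enzyme Ehhadh differed by 0.25 with a wide interval, -0.72 to 1.23, since NCD replicate 1 held 55.7 CPM and NCD replicate 2 held 237 CPM. Its difference was -0.15 without NCD replicate 1, in the opposite direction.

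The acyl-CoA thioesterases, which release free fatty acids from CoA, pointed in both directions. EdgeR called 0 of the 5, with 4 at an unadjusted p under 0.05, and DESeq2 called Acot1. Acot1, the cytosolic form, was at 25.3, 33.1 and 38.2 CPM in NCD and 17.8, 21.4 and 19.3 CPM in HFD. All HFD libraries were lower (log2 difference -0.71, edgeR adjusted p = 0.0677, DESeq2 adjusted p = 0.0123). Acot1 was also called by edgeR with total-count scaling (adjusted p = 0.0352), with upper-quartile scaling (adjusted p = 0.0469) and without NCD replicate 1 (-0.88, adjusted p = 0.00287). Acot2, its mitochondrial relative, was at 3.997, 3.58 and 4.03 CPM in NCD and 6.42, 5.32 and 5.54 CPM in HFD, in the opposite direction and also without overlap (log2 difference 0.58, adjusted p = 0.147). The peroxisomal forms Acot3 and Acot8 differed by 1.09 and 1.04, and Acot4 by 0.15. Without NCD replicate 1 they were 0.88, 0.66 and 0.33, and of these 3 only Acot8 was called (adjusted p = 0.0421). Acot4 turned to -0.02 without NCD replicate 3 and to -0.09 with total-count scaling. The coding sequences of Acot1 and Acot2 are 95.6% identical, and 43.6% of the 50-base stretches of Acot1 also occur in Acot2, so reads could be split between these genes or left out by the authors' counting.

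Of the ketone body enzymes, Bdh1 interconverts acetoacetate and beta-hydroxybutyrate. Its levels were 105, 225 and 268 CPM in NCD and 616, 475 and 560 CPM in HFD. All HFD libraries were higher, with a log2 change of 1.48 (SE 0.33, adjusted p = 0.0420). Acat1, the mitochondrial acetoacetyl-CoA thiolase, was at 177, 471 and 457 CPM in NCD and 993, 1016 and 876 CPM in HFD. The groups did not overlap, and the log2 difference lay just outside the threshold in edgeR (1.40, SE 0.35, adjusted p = 0.0513) and within it in DESeq2 (adjusted p = 0.00127). Acat1 was called in 6 of 12 alternative settings that kept every library, and by edgeR without NCD replicate 1 (1.05, adjusted p = 0.000743) or without NCD replicate 2 (1.63, adjusted p = 0.0486).

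Vnn1, a pantetheinase that recycles the vitamin part of CoA and a known PPARA target, was at 10.8, 34.4 and 26.4 CPM in NCD and at 87.9, 89.4 and 95.7 CPM in HFD. The HFD libraries lay close together and above all NCD libraries, with a log2 change of 1.96 (SE 0.36, adjusted p = 0.0302). Pdk4, the kinase that inhibits pyruvate dehydrogenase and so spares glucose, went the other way. It was at 38.2, 23.6 and 31.1 CPM in NCD and at 8.94, 6.52 and 9.94 CPM in HFD. All HFD libraries were lower, with a log2 change of -1.86 (SE 0.25, adjusted p = 0.00994). NCD replicate 3 also held muscle transcripts, with Acta1 at 33.9 CPM, Myh4 at 18.6 CPM and Ckm at 5.87 CPM, while the 3 genes summed to at most 0.850 CPM in any other library. Pdk4 is also expressed in muscle, and without NCD replicate 3 its log2 change was -1.86 (adjusted p = 0.0383).

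**Figure D3:**
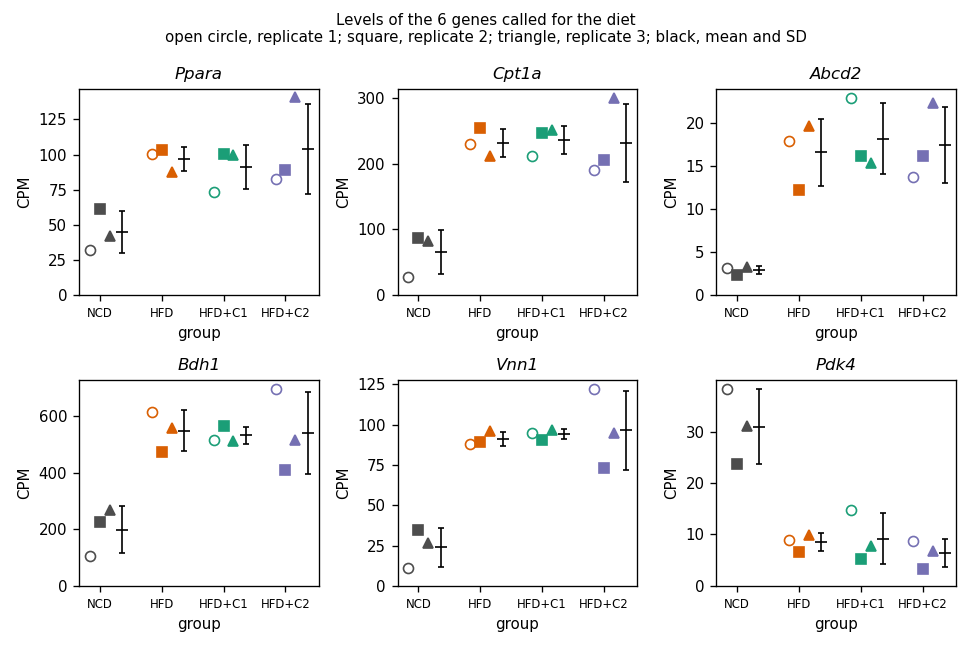
CPM of the 6 genes called for the diet in every library, by group, with the mean and SD in black. For each gene the HFD values lie on one side of the NCD values, and the HFD+C1 and HFD+C2 values lie near those of HFD.

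These calls depended on single libraries. Without NCD replicate 1 there were 11 members among 1838 of 13412 genes called, and without NCD replicate 2 there were 8 among 1276 of 14352, including the same 6 in both cases. Abcd2 and Pdk4 were the 2 called without NCD replicate 3 (487 of 13722 genes) or without HFD replicate 2 (131 of 13937 genes). Abcd2 was the only 1 called without HFD replicate 3 (25 of 13994 genes). Without HFD replicate 1, 0 members were called (Abcd2 adjusted p = 0.0503), when 23 of 13900 genes were called. The log2 changes themselves stayed between 2.36 and 2.68 for Abcd2, 1.46 and 2.12 for Cpt1a, 0.94 and 1.44 for Ppara, 1.16 and 1.75 for Bdh1, 1.61 and 2.31 for Vnn1, and -1.99 and -1.69 for Pdk4 in these fits.

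Of 74 further genes of the pathway, 72 were tested for the diet, and 3 rose and 3 fell by edgeR's test, while 6.03% of all genes were called. Among those that rose was the adipogenic receptor Pparg (log2 change 0.94, adjusted p = 0.0419), at 9.44, 13.7 and 14.7 CPM in NCD and 24.0, 24.2 and 23.6 CPM in HFD, without overlap. Pparg was called in 9 of 12 alternative settings, and lost the call with total-count scaling (0.73, adjusted p = 0.0503), limma with pseudocount 1 (0.91, adjusted p = 0.0527) and the replicate block (0.96, adjusted p = 0.0606). Those that fell were Nudt7, which degrades peroxisomal CoA (-1.73, adjusted p = 0.0339), and the acyl-CoA synthetases Acsl4 (-2.25, adjusted p = 0.0358) and Acsl3 (-0.82, adjusted p = 0.0348). Acsl3 was not called with no filter on low counts (-0.64, adjusted p = 0.0740) or with the replicate block (-0.82, adjusted p = 0.0626). None of these 4 genes was called without HFD replicate 1 or without HFD replicate 3. Of the 4, only Nudt7 was called without HFD replicate 2 and only Acsl4 without NCD replicate 3, and the adjusted p of the calls lost in these fits ran from 0.0508 to 0.206. EdgeR called 0 of 15 peroxisome assembly genes, with 4 at an unadjusted p under 0.05 and a median log2 difference of 0.04, and DESeq2 called Pex14 (log2 change 0.89, adjusted p = 0.0487).

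Promoters are shown for the called members that had an entry, because these genes changed on the diet. RefSeq promoter sequences (build GRCm38.p6) were found for 31 of the 38 members, and the 250 bases before each start were searched on both strands for AGGTCA, the unit recognised by many nuclear receptors, and for the repeat AGGTCANAGGTCA with up to 2 mismatches, which is the form bound by PPARA and its partner. The sequences of Ppara (chr15:85735526-85735775, plus strand), Cpt1a (chr19:3323051-3323300, plus strand), Bdh1 at its 2 starts (chr16:31422047-31422296 and chr16:31428503-31428752, plus strand) and Pdk4 (chr6:5496279-5496528, minus strand) follow 5′ to 3′, and capitals mark a match to AGGTCA, here on the opposite strand.
Ppara: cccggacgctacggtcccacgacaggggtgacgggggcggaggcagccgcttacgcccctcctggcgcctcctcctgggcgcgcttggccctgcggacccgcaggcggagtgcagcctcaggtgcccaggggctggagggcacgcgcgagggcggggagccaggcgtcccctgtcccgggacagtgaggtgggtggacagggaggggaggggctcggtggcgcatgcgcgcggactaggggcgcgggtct
Cpt1a: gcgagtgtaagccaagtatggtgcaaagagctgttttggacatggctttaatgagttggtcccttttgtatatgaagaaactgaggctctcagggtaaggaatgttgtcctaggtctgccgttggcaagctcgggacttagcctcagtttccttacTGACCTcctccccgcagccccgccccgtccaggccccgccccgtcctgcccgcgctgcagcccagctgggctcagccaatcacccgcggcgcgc
Bdh1 start 1: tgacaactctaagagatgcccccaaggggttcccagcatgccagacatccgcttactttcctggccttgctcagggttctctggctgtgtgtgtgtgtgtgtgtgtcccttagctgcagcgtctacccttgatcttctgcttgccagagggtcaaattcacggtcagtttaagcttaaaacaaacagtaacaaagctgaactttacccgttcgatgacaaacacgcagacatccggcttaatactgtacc
Bdh1 start 2: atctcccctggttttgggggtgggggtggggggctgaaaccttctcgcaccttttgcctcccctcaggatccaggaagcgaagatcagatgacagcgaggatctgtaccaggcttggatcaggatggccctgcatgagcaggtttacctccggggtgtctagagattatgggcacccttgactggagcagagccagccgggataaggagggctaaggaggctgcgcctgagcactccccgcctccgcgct
Pdk4: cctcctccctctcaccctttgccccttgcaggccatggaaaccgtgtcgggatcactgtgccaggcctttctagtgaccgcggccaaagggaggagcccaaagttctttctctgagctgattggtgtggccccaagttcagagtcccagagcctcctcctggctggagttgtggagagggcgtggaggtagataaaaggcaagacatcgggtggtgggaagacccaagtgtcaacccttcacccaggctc
The match in Cpt1a lay 94 to 89 bases before the start, and the Ppara, Bdh1 and Pdk4 windows held none. AGGTCA occurred in 5 of 34 member promoters (14.7%), counting alternative starts, and in 14.0% of all 32851 promoters. The repeat occurred in 3 of 34 (8.82%), those of Echs1, Etfa and Acot4, and in 3.24% of all promoters, and in Echs1 and Acot4 it overlapped an AGGTCA match. None of these 3 genes was called by edgeR or DESeq2.

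The second comparison, HFD+C1 against HFD, asked what C1 added on the high-fat diet. No member was called, and the levels of the genes that the diet had raised stayed near those of HFD. Cpt1a was at 212, 247 and 251 CPM in HFD+C1, Ppara at 73.1, 100 and 99.6 CPM, and Bdh1 at 518, 566 and 514 CPM. Of 13358 genes tested with edgeR's quasi-likelihood test, 7 (0.0524%) were called, and 1 member and 1035 genes had an unadjusted p under 0.05. DESeq2 and limma also called 0 members. The groups did not overlap for 3 members, Acaa2, Etfa and Hsd17b4, all higher in HFD+C1, and for 12.4% of all genes. The log2 differences ran from -0.39 to 0.21 with a median of 0.06, against 0.01 over all genes.

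For the 6 genes called for the diet, the 95% intervals of the C1 difference excluded a value as large as the diet's, in either direction. For Cpt1a the difference was 0.03 (-0.23 to 0.29), for Ppara -0.10 (-0.39 to 0.20), and for Pdk4 0.13 (-0.51 to 0.77). All 11 mitochondrial oxidation enzymes were slightly higher in HFD+C1, by 0.01 to 0.12, and all 5 thioesterases were lower, by -0.01 to -0.39, with no call in either list, while 51.2% of all genes were higher. These signs were not uniform in every setting: with library weights Decr1 (-0.15) and Eci1 (-0.02) were lower and Acot1 (0.0072) higher, with total-count scaling Acot1 was higher (0.0061), and leaving out a library turned Decr1, Eci1, Echs1, Hadha, Acot1, Acot2 or Acot4. The smallest p among members that were lower belonged to Crat, at 53.9, 55.2 and 63.3 CPM in HFD+C1, which overlapped HFD through replicate 3 (log2 difference -0.27, SE 0.12, adjusted p = 0.643). Acot3 was at 3.64, 2.7 and 3.35 CPM (-0.39), and Pex11a, a peroxisome division factor, at 57.2, 52.4 and 62.9 CPM (-0.12), both overlapping HFD. The smallest p among members that were higher belonged to Etfa, the other electron transfer flavoprotein subunit, at 490, 418 and 411 CPM against 363, 388 and 391 CPM in HFD (0.21, SE 0.12, adjusted p = 0.754). Abcd3 was at 548, 490 and 568 CPM (0.19) and the flavoprotein dehydrogenase Etfdh at 275, 298 and 303 CPM (0.16). Pdk4 varied most, at 14.7, 5.22 and 7.66 CPM. Of the 72 further pathway genes tested, 0 were called and 5 had an unadjusted p under 0.05. Macrophage markers summed to 217 to 284 CPM in HFD+C1 and 133 to 175 CPM in HFD, and the part of this in the members' differences was not tested.

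The third comparison, HFD+C2 against HFD, put the same question for C2. No member was called. The values ran from -0.67 for Acaa1b to 0.52 for Crot on the log2 scale, with a median of -0.06 over the members and 0.02 over all genes. In HFD+C2, 16 members were higher and 22 lower, while 52.2% of all genes were higher. Without HFD+C2 replicate 2 the members' median turned to 0.02, with 20 higher and 18 lower. Of 13503 genes tested with edgeR's quasi-likelihood test, 3 (0.0222%) were called, and 2 members and 931 genes had an unadjusted p under 0.05. DESeq2 and limma called 0 members here too. The groups did not overlap for 3 members, Ehhadh higher and Acot2 and Crat lower, and for 13.6% of all genes. EdgeR called 0 of the 72 further pathway genes tested, with 2 at an unadjusted p under 0.05.

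Acot2 was at 2.90, 4.19 and 4.15 CPM in HFD+C2, below the HFD range, with a log2 difference of -0.62 (SE 0.22, adjusted p = 0.695). Its near-identical relative Acot1 was at 20.5, 29.7 and 18.8 CPM (0.23). Crat was at 43.9, 49.3 and 58.7 CPM, also below all HFD libraries (-0.46, SE 0.17, adjusted p = 0.695). Ehhadh, the peroxisomal bifunctional enzyme, was at 212, 248 and 229 CPM against 179, 192 and 163 CPM in HFD, so that every treated library was higher (0.36, SE 0.16, adjusted p = 0.695). The diet-raised genes differed little: Cpt1a was at 190, 205 and 300.1 CPM (-0.01, interval -0.48 to 0.47), and Ppara at 82.3, 88.7 and 141 CPM (0.09, interval -0.41 to 0.59). Pdk4 was at 8.76, 3.37 and 6.79 CPM (-0.44, interval -1.17 to 0.28). For each of these 3 genes the interval is wider than for C1. Macrophage markers summed to 169 to 404 CPM and stellate cell and fibroblast markers to 110 to 152 CPM in HFD+C2, against 133 to 175 CPM and 90.1 to 113 CPM in HFD. Both upper values were those of HFD+C2 replicate 1, and both lower values, those of replicate 3, lay within the HFD range. The part of these markers' cells in the members' differences was not tested.

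Several of the widest intervals came with HFD+C2 replicate 1. In that library Acaa1a was at 108 CPM against 191 and 196 CPM in replicates 2 and 3, and Acaa1b at 584 CPM against 1337 and 1402 CPM. Both peroxisomal thiolases were lowest there. Of the 38 members, 14 were lowest and 16 highest of the group in HFD+C2 replicate 1. The shares over 10136 genes with at least 1 CPM in every library were 46.02% and 37.65%. Crot was at 1369 CPM against 811 and 939.6 CPM, and Acat1 at 1690 CPM against 1077 and 924 CPM, each highest in replicate 1. Hadh (298 against 422 and 438 CPM), the mitochondrial hydroxyacyl-CoA dehydrogenase, and Etfb (1904 against 769 and 652 CPM) were chosen after their values were seen. Without that library the log2 difference from HFD was -0.28 in place of -0.51 for Acaa1a, -0.36 in place of -0.67 for Acaa1b, 0.28 in place of 0.52 for Crot and 0.05 in place of 0.35 for Acat1. Etfb turned from 0.15 to -0.49. Ehhadh (0.42), Acot2 (-0.47) and Crat (-0.36) kept their direction, and 0 members were called with or without it.

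**Figure D4:**
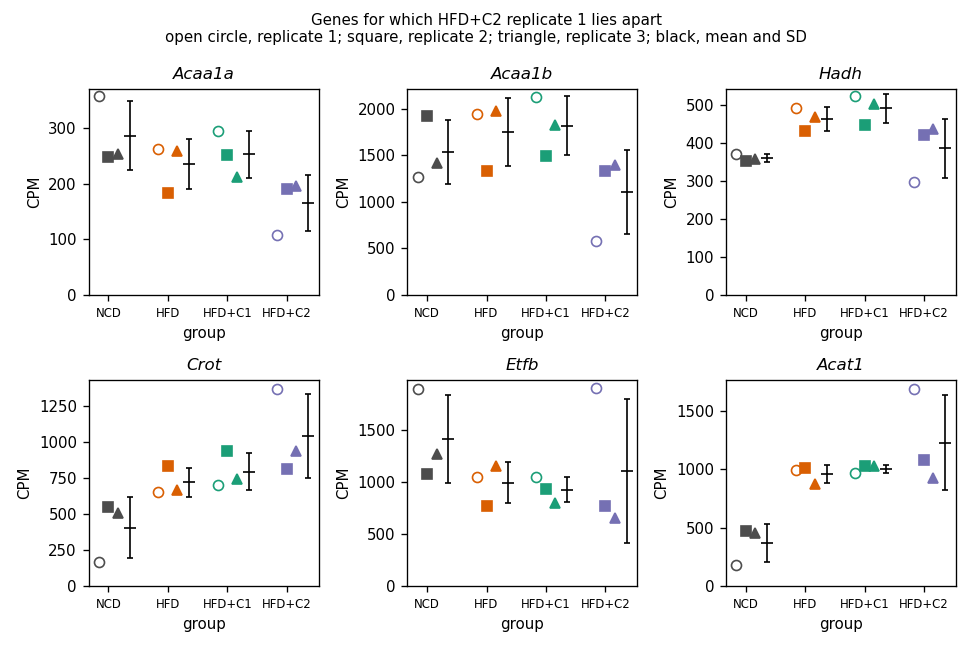
CPM of 6 genes in every library, by group, with the mean and SD in black; open circles are replicate 1. In HFD+C2 replicate 1 Acaa1a, Acaa1b and Hadh lie below, and Crot, Etfb and Acat1 above, the other HFD+C2 libraries.

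Acaa1a and Acaa1b both lie on chromosome 9 (chr9:119339676-119350299, plus strand, and chr9:119148023-119157093, minus strand, GRCm38). Their coding sequences are 96.5% identical over 1272 bases. Coding bases 460 to 549 are shown because they hold 13 of the bases that tell the genes apart, printed in capitals.
Acaa1a: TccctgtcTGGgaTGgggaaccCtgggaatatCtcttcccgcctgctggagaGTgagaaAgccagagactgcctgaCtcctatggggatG
Acaa1b: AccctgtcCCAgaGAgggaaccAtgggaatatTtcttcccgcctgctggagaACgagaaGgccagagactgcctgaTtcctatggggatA
Of the 50-base stretches of either coding sequence, 37.9% occur in the other. How the authors' counting treated shared reads is not given, and its part in both levels was not tested. Reads mapping to several places made up 5.17% of HFD+C2 replicate 1, against 7.28% to 7.495% in HFD. Reads ambiguous between genes made up 9.04% of that library, against at most 4.96% in HFD.

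C1 and C2 were given at the same dose of 5 mg/kg/day for the same 12 weeks, so that pair, the only 1 of treated groups, was compared directly. No difference between the compounds passed the test for any member, and 0 of 13229 genes (0%) were called by edgeR's quasi-likelihood test, with 2 members and 608 genes at an unadjusted p under 0.05. DESeq2 called 3 genes and 0 members, and limma called 0 genes. The groups did not overlap for 6 members, 1 higher and 5 lower with C2, and for 12.0% of all genes. The differences (HFD+C2 minus HFD+C1) ran from -0.71 to 0.63 with a median of -0.06.

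Acaa1a was at 295, 252 and 211 CPM with C1, above all the C2 libraries (log2 difference -0.61, interval -1.18 to -0.04, adjusted p = 0.841). Acaa1b was at 2130, 1499 and 1833 CPM with C1 and did not overlap C2 either (-0.71, interval -1.45 to 0.02, adjusted p = 0.841). Without HFD+C2 replicate 1 these differences were -0.38 and -0.41. Eci1 was at 203, 179 and 185 CPM with C1 and 165, 148 and 157 CPM with C2 (-0.27, interval -0.61 to 0.07). Every C2 library was lower. Acot3, at low levels in both groups, was the only member wholly higher with C2, at 5.26, 5.52 and 4.19 CPM (0.63, interval 0.13 to 1.12, adjusted p = 0.841). It rested on 59 to 96 reads with C1 and 100 to 141 with C2, and was 0.59 without HFD+C2 replicate 1. Crot (0.39, interval -0.15 to 0.93) and Ehhadh (0.24, interval -0.14 to 0.61) overlapped. Crot was at 700, 940.5 and 740 CPM with C1, and 0.14 remained of its difference without HFD+C2 replicate 1.

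For the regulator and the diet-raised genes the compounds differed by 0.19 for Ppara (interval -0.33 to 0.72), -0.03 for Cpt1a (-0.49 to 0.44), -0.06 for Abcd2 (-0.57 to 0.45), 0.03 for Bdh1 (-0.46 to 0.51) and 0.04 for Vnn1 (-0.40 to 0.48). The interval for Pdk4 was the widest, -1.51 to 0.40 around -0.56. These p-values miss the threshold, which does not show that C1 and C2 act alike on these genes. Both compound comparisons use the same 3 HFD libraries, so they are set side by side and not correlated: for Crat, the member with an unadjusted p under 0.05 in both, the difference from HFD was -0.27 with C1 and -0.46 with C2.

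**Figure D5:**
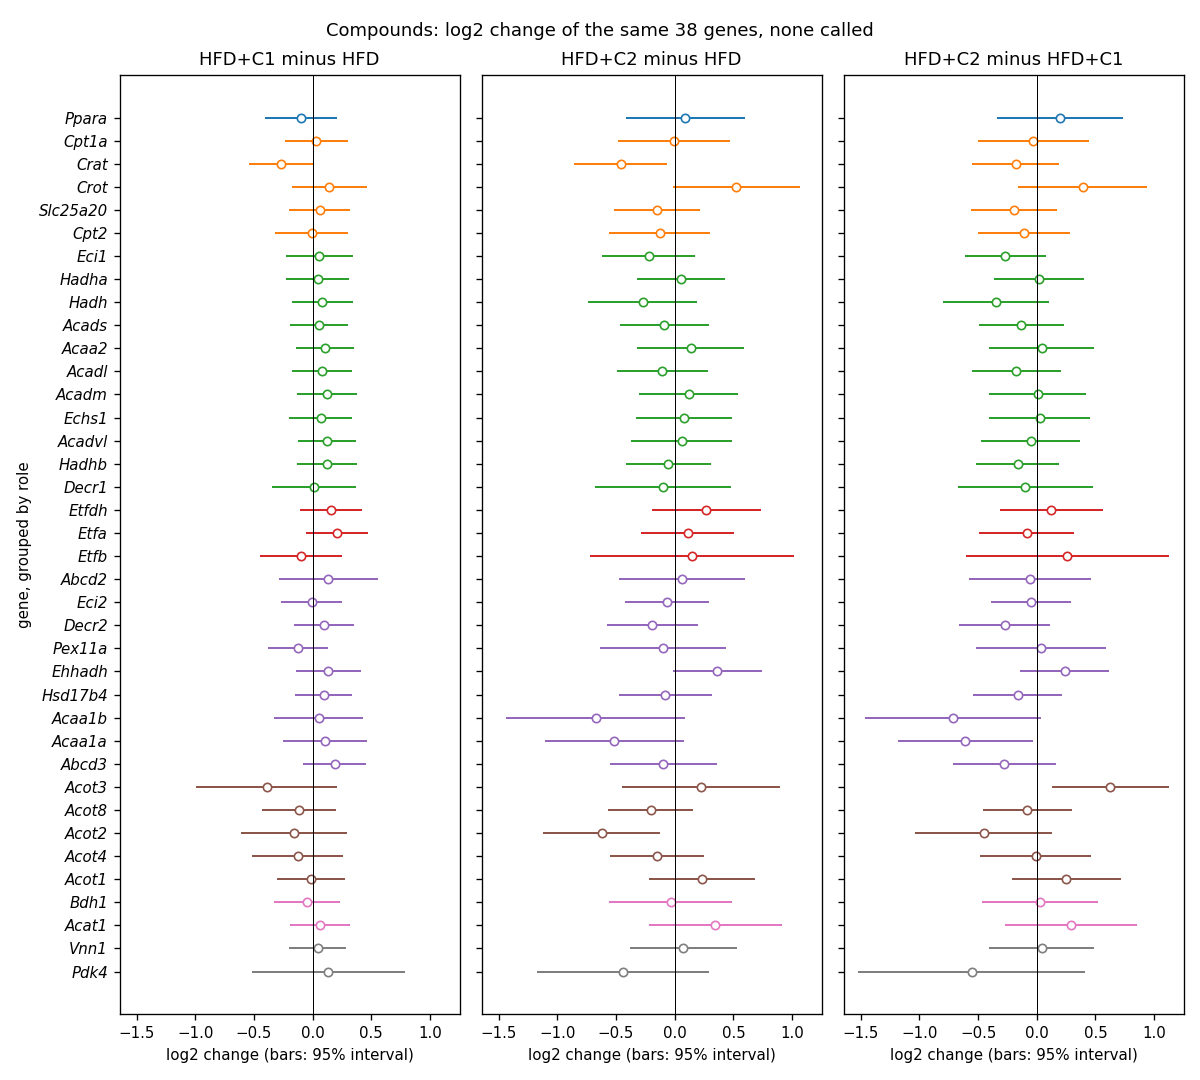
Points give the log2 change of each of the 38 genes and bars its 95% interval, in 3 panels for HFD+C1 minus HFD, HFD+C2 minus HFD and HFD+C2 minus HFD+C1; open points are not called. All points lie between -0.71 and 0.63, and for each gene the interval is wider in the HFD+C2 minus HFD panel than in the HFD+C1 minus HFD panel.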

How the data were processed

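Total RNA of mouse liver was sequenced in 12 libraries, 3 per group. The authors deposited 3 tables, each holding raw read counts per gene for 6 libraries; their name says normalized, but the values are whole numbers and sum to different totals. The submitters' processing notes name Trimmomatic 0.39, STAR 2.7, DESeq2 and build mm10; the gene annotation and the counting settings, strand included, are not given in the sources used here. The same HFD counts stand in all 3 tables (0 values differed). The 4 rows that name no gene, 27.3% to 58.2% of a library, stayed out of library sizes and tests, and 0 sample columns were left unmapped.

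Each comparison was fitted on its 6 libraries with edgeR 4.0.16 (R 4.3.3): TMM scaling, a minimum mean count of 10 per gene, the quasi-likelihood test, Benjamini-Hochberg adjustment over all genes tested and a call at an adjusted p under 0.05. The standard error is the log2 change divided by the root of the F statistic. CPM were scaled over all 12 libraries, and exon lengths and coordinates came from GENCODE M21 (GRCm38). Alternatives were other scalings, a minimum mean count of 50 or none, DESeq2 1.42.0 without independent filtering, limma 3.58.1 on log2 of CPM plus 1 or 0.1, robust dispersions, a fit of all 12 libraries, replicate blocks and leaving out each library; limma with library weights was added after the data were seen. The scripts were tested on simulated data. The members and lists were chosen with earlier results of these data known. Named genes were those called, Ppara, Cpt1a and Pdk4, the members with the 3 smallest p-values in each direction, and near-identical pairs; other genes of a role are given by their difference alone. Results for some further genes of the pathway are not reported here.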

Additional observations from a re-analysis of the deposited data

Results flagged for a closer look

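Reads not assigned to a gene were flagged in HFD+C2 replicate 1, by a rule that held only the compound libraries against HFD. Reads ambiguous between genes made up 9.04% of that library, against at most 4.96% in HFD. Reads outside any annotated feature made up 10.9%, against at most 6.84% in HFD, and unmapped reads 21.9%, against at most 16.6%. Their part in the members' values in that library was not tested. NCD replicate 1, which the rule did not cover, held 7.88% ambiguous reads, 23.2% outside any feature and 21.5% unmapped.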

How the results depend on the processing

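For the diet, 836 genes and 6 members were called. With no filter on low counts there were 4493 and 12, with DESeq2 2298 and 11, in the fit of all 12 libraries 2418 and 12, and with library weights (added after the data were seen, with convergence warnings) 7046 and 26. A mean of at least 50 counts gave 524 genes and limma with pseudocount 1 gave 361, both with 6 members. Leaving out a library gave 23 to 1838 genes and 0 to 11 members. Total-count scaling moved the median of all genes to -0.24, the members to 22 higher and 16 lower, and the calls from 359 higher and 477 lower to 241 and 864. The 6 members were called in all settings that kept every library except Ppara under total-count scaling.

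For C1, 7 genes were called, 206 with no filter, 64 with DESeq2, 0 with all 12 libraries, 62 with library weights and 2 to 102 with a library left out. For C2, 3 genes were called, 152 with no filter, 35 with DESeq2, 0 with all 12 libraries, 190 with library weights and 0 to 27 with a library left out. For C2 against C1 there were 0, 162 with no filter, 3 with DESeq2 and 0 to 1 with a library left out. No setting called a member in these 3 comparisons.

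Some small uncalled log2 differences changed sign. With library weights Pdk4 was -0.23 for C1 and Cpt1a 0.013 for C2, and with upper-quartile scaling Cpt1a was 0.0079 for C2. With a library left out, C1 gave -0.40 to 0.42 for Pdk4, -0.030 to 0.10 for Cpt1a and -0.17 to 0.037 for Ppara; C2 gave -0.23 to 0.12 for Cpt1a and -0.19 to 0.24 for Ppara; C2 against C1 gave -0.26 to 0.093 for Cpt1a and -0.084 to 0.34 for Ppara. The cause was not tested, and fewer libraries also widen the intervals.

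The deviations of libraries with the same replicate number correlated by -0.04, 0.28 and -0.12 for the diet, 0.04, 0.16 and -0.19 for C1, -0.04, -0.03 and -0.21 for C2, and 0.10, -0.01 and 0.14 for C2 against C1; in no comparison were all 3 over 0.1, so the numbers were not taken to pair them. With the replicate block 483 genes and the same 6 members were called for the diet, 36 genes for C1, 3 for C2 and 0 for C2 against C1. Precision is limited by 3 libraries a group and, for Abcd2, Acot2 and Acot3, by counts as low as 11 to 17 in NCD replicate 2.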
